A study of Mus musculus with 6 samples.

Results

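Mitochondrial ribosomal protein genes are the nuclear genes named Mrpl or Mrps, followed by digits and at most 1 letter, with pseudogenes left out and a mean of at least 1 RPKM (reads per kilobase of transcript, scaled to the size of the library) over 6 libraries. The naming rule found 77 rows among 18301 genes, and all 77 passed the level filter, which 11939 genes passed in all. The lowest member, Mrpl1, had a mean of 4.76 RPKM, so no row of the rule lay just inside or just outside the threshold. By gene name, with Mrps18a and Mrps30 moved to the large subunit, 50 members were placed in the large subunit and 27 in the small subunit. Genes were also split into bacterial-type, with a counterpart in bacteria, and mitochondria-specific. Subunit placement and this split went by gene name, number and a fixed list, not by sequence or structure. Single genes can therefore be misplaced, or carry the name without being part of the ribosome. The split counted 28 large-subunit genes as bacterial-type and 22 as mitochondria-specific, and for the small subunit 16 and 11. Gadd45gip1, also known as Crif1, and 5 more subunit genes with other names are reported beside the members.

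The mitochondrial ribosome makes the few proteins that the mitochondrial genome encodes, all of them core subunits of the respiratory chain and of ATP synthase. Its ribosomal RNAs come from mitochondrial DNA, while its proteins are encoded in the nucleus, made in the cytosol and imported. Phosphatidylethanolamine, the product of the pathway targeted here, is a major lipid of the inner mitochondrial membrane. This ribosome is attached to that membrane while it works. The libraries do not measure lipids, and a link between this lipid and the genes below was not tested.

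The study asked how the CDP-ethanolamine pathway, which builds phosphatidylethanolamine from ethanolamine (Etn), acts early in the reprogramming of fibroblasts to pluripotent cells. All 6 libraries came from mouse embryonic fibroblasts of the strain CBA/CaJ X C57BL/6J on day 2 of reprogramming, transfected with short hairpin RNAs (shRNAs) in iCD1, a defined reprogramming medium. The control, shLuc, had an shRNA against luciferase in complete iCD1 and was the only group with 2 libraries. The treated groups were shEtnk1/2, aimed at both ethanolamine kinases, shPcyt2, aimed at the enzyme that makes CDP-ethanolamine, Etn-deprived, with shLuc in iCD1 lacking Etn, and shPebp1, aimed at phosphatidylethanolamine-binding protein 1. Each of these 4 groups was 1 library, so no treated value had a replicate of its own. The labels do not say whether the shLuc pair came from separate cultures, and p-values therefore reflect only how far those 2 samples lay apart, which may be technical. The sources used here do not say which embryos were pooled or how many hairpins were used per gene.

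The libraries held between 18467583 and 20020465 reads in genes. Etnk1 stood at 21 and 21.4 RPKM in the shLuc libraries and at 12.5 RPKM in shEtnk1/2, while Etnk2 lay below the level filter in the mean. Pcyt2 stood at 42.0 and 40.0 RPKM in shLuc and at 29.9 RPKM in shPcyt2, a difference with a limma adjusted p of 0.16. Pcyt2 also lay below both controls in shEtnk1/2, at 35.6 RPKM, and in Etn-deprived, at 33.5 RPKM. Pebp1 stood at 99.6 RPKM in shPebp1, but at 250.4 RPKM in shLuc replicate 1. It stood at 100.7 RPKM in the library labelled shLuc replicate 2, which goes against that label. Results are therefore also given without that library. The 6 fibroblast markers summed to between 6908.1 and 10129.0 RPKM per library, while 4 macrophage, 3 endothelial, 3 skeletal muscle and 2 keratinocyte markers each summed to at most 7.70 RPKM, with Pecam1, Cdh5, Myog, Ckm and Krt5 at 0 in at least 1 library. The 3 neural markers, which included the neuronal gene Stmn2, summed to between 43.8 and 69.2 RPKM. Their part in the results was not tested, and in bulk RNA fewer cells of a type and less RNA per cell cannot be told apart.

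Genes of this family are known for promoters with sites of NRF1, of ETS factors such as GABP, and of YY1, all nuclear regulators of mitochondrial genes. RefSeq promoters (build GRCm38.p6, 250 bases before to 50 after the annotated start) were matched by symbol for 68 of the 77 members. The ETS letters CCGGAAG, on either strand, stood in 36.8% of these 68 windows, against 19.3% of the 8963 tested genes with a promoter and 9.23% of all 27025 promoters. The YY1 letters AAGATGGC stood in 17.6%, against 4.95% and 2.88%, and the NRF1 core GCGCATGC in 11.8%, against 5.79% and 2.82%. The E-box CACGTG stood in 7.35%, against 10.4% and 7.22%. At least 1 of the first 3 motifs was found in 37 of 68 member promoters (54.4%), against 27.4% of tested genes and 13.9% of all promoters. The NRF1 core can overlap its own reverse complement, as it does in Mrpl9 and Mrpl32. A match describes letters in the window and is not evidence of binding.

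The following stretches, read 5′ to 3′ on the gene's own strand, show what these windows look like, with the matched motif in capitals on whichever strand it was found. The first 4 are the 100 bases before the annotated start in genes with an ETS match, Mrpl52 (chr14:54426809-54426908, plus strand) and Mrpl34 (chr8:71464826-71464925, plus), both lower in the Etn-deprived library, and Mrpl43 (chr19:45006443-45006542, minus) and Mrps22 (chr9:98601680-98601779, minus), which did not pass the test there. The last 3 are 30 bases around an NRF1 match in Mrpl33 (chr5:31613921-31613950, plus) and Mrpl32 (chr13:14613038-14613067, minus) and around a YY1 match before Mrps11 (chr7:78783013-78783042, plus).
Mrpl52: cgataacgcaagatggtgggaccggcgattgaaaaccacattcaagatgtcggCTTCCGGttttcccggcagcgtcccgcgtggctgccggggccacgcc
Mrpl34: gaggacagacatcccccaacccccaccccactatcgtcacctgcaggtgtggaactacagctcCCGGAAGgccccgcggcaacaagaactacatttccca
Mrpl43: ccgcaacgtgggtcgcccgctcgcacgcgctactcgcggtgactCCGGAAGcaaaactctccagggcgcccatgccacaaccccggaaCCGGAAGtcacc
Mrps22: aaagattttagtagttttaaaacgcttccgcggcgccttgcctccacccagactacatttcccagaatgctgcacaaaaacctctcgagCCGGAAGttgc
Mrpl33: agccttctaccggaacccGCGCATGCcccg
Mrpl32: gacttaacGCATGCGCtcagcccgcgtccc
Mrps11: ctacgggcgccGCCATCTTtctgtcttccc

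Over the promoters of members lower in the Etn-deprived library, 6 of 13 held the ETS letters, 3 of 13 those of YY1, 0 of 13 the NRF1 core and 3 of 13 the E-box. Over the other 55 matched members these numbers were 19, 9, 8 and 2. The counts are small and are given as a description. Some annotated starts lie away from the deposited start, by 895 bases for Mrps21, which has an ETS match. For Mrpl20, which has an E-box match, it is 740 bases, and for Mrps23, among the other 55, it is 10282. The YY1 match before Mrps11 lies inside an exon of Mrpl46, another member. These genes start 42 bases apart on opposite strands of chromosome 7. The printed stretches of Mrpl33 and Mrpl32 overlap annotated exons of their own genes.

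Member levels spanned a little over 1 order of magnitude. On the scale of mean RPKM, which is per length, the highest were Mrpl33 with 72.4, Mrpl52 with 66.2, Mrpl30 with 64.2, Mrps21 with 61.9 and Mrpl42 with 60.5. The lowest were Mrpl1 with 4.76, Mrps25 with 5.44, Mrpl19 with 5.94, Mrpl35 with 6.23 and Mrpl41 with 7.71 RPKM. The 5 lowest had annotated transcripts of 4188, 6065, 5000, 3695 and 2423 nt, far above the members' median of 1053 nt, and the 5 highest had between 407 and 691 nt. A transcript model longer than the RNA that is made lowers RPKM, and whether that holds for these genes was not tested. Mrps25 shares 58.2% and Mrpl19 39.2% of its exon bases with a gene on the opposite strand, and whether the counting used strand is not stated in the sources used here. The median member stood at 25.7 RPKM in both shLuc libraries, where the median gene tested stood at 12.1 and 12.2. Each member had between 140 and 1365 reads in a library, with a median of 524, so precision was limited where reads were few. The fewest were the 140 of Mrps28 in Etn-deprived, which is not among the 5 lowest in RPKM.

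**Figure D1:**
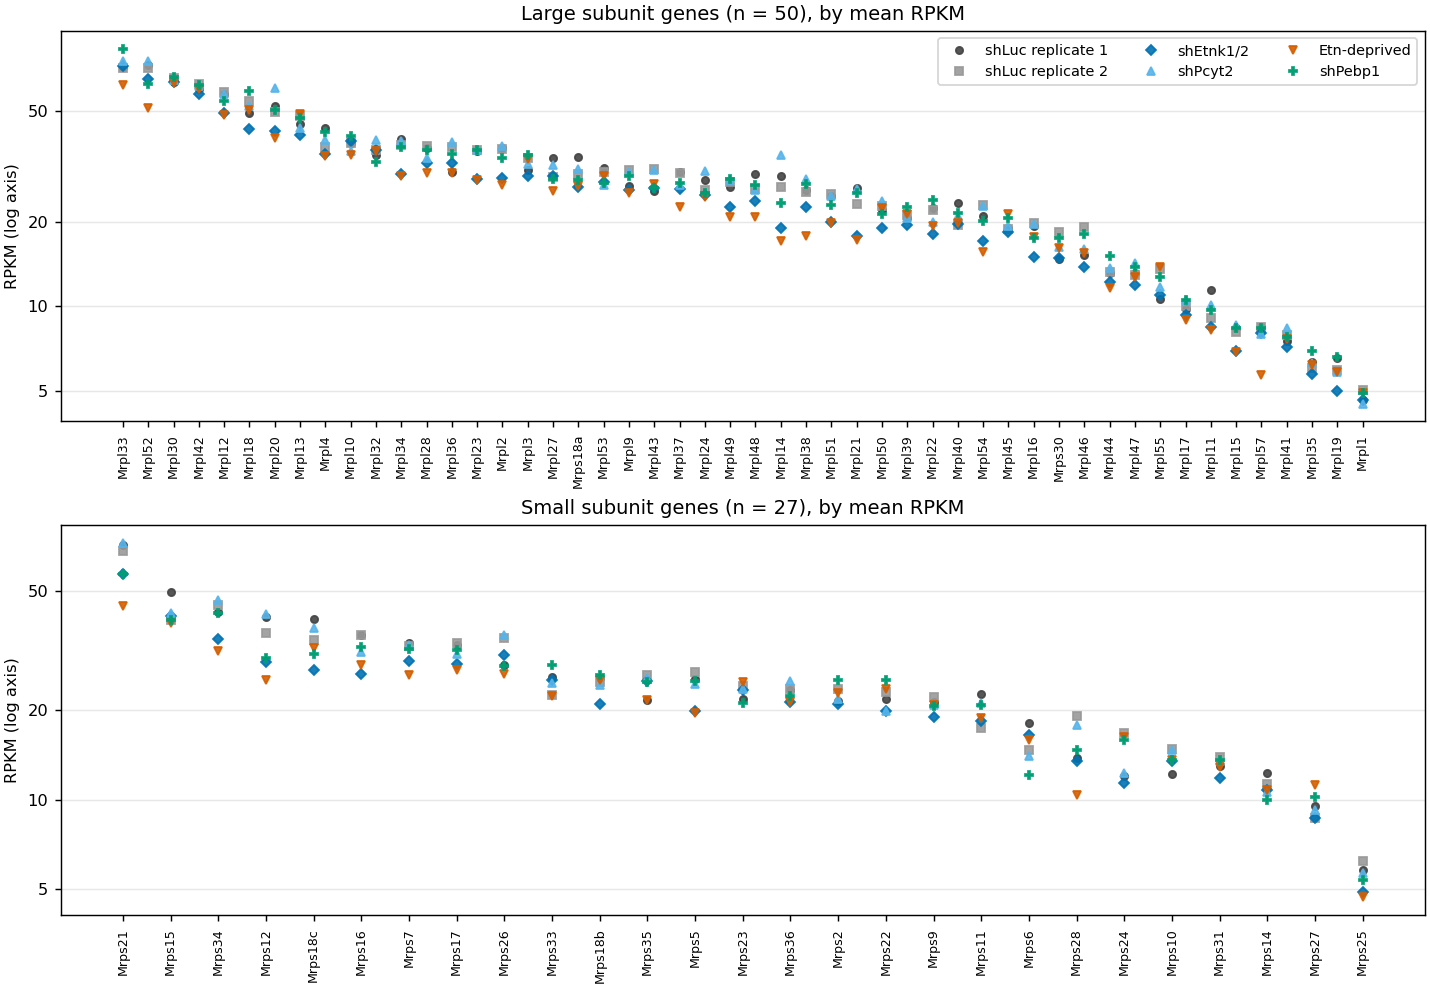
RPKM (log axis) of the 50 large-subunit and 27 small-subunit members in each of the 6 libraries, 1 symbol per library, ordered by mean RPKM. Levels run from 72.4 RPKM for Mrpl33 to 4.76 for Mrpl1 in the mean, and the Etn-deprived library holds the lowest value for 40 of the 77 genes.

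The proteins that share the name Mrps18 come from 3 genes, of which Mrps18a is built into the large subunit and Mrps18b and Mrps18c into the small subunit. Their mean levels were 29.4, 24.6 and 33.9 RPKM. None of the 3 passed the test in any comparison. Mrps18b shares 59.1% of its exon bases with an antisense gene, so its level is uncertain.

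The share of all gene reads that came from the 77 members was 0.236% and 0.238% in shLuc replicates 1 and 2, 0.238% in shPcyt2 and 0.235% in shPebp1. It was 0.209% in shEtnk1/2 and also 0.209% in the Etn-deprived library, where the 95% Wilson interval ran from 0.207% to 0.211% and covers counting error only. These 2 libraries lay below both controls by more than the controls lay apart, and shPcyt2 and shPebp1 lay close to them. The members' summed level was 2152.2 and 2157.2 RPKM in shLuc, 1893.1 in shEtnk1/2, 1859.8 in Etn-deprived, 2180.1 in shPcyt2 and 2106.9 in shPebp1. No test was made of these sums and shares.

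Of the 4 treated libraries, the Etn-deprived one had the most members called by the test. Against shLuc, 16 of 77 members (20.8%) were lower and 0 higher in the Etn-deprived library by limma at an adjusted p under 0.05. Over all genes tested 3.22% were lower and 0.586% higher. All 16 calls were lost when the trend of differences with transcript length was removed. How many calls over all genes this removal ended is not given here, so the loss need not be particular to these 16 calls. Leaving out either shLuc library also ended them, but there the spread came from shEtnk1/2 and shPcyt2, and most calls over all genes ended too. The members' median log2 difference was -0.14, on the scale of log2(RPKM + 1) used for all differences here, against -0.01 over all genes, and 63 of 77 members lay below shLuc. In shEtnk1/2, where fewer members were called, the median was -0.17 and 69 of 77 lay below shLuc. The 16 genes were spread over the ribosome, with 12 of 50 in the large and 4 of 27 in the small subunit. They held 9 of the 44 genes counted as bacterial-type and 7 of the 33 counted as mitochondria-specific.

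The largest difference among members was that of Mrpl14, a large-subunit protein at the face that meets the small subunit. Mrpl14 (chr17:45686372-45698495, plus strand, mm10) stood at 29.2 and 26.6 RPKM in shLuc, 17.1 in Etn-deprived, 19.1 in shEtnk1/2, 34.7 in shPcyt2 and 23.3 in shPebp1. Etn-deprived and shEtnk1/2 were the lowest libraries and shPcyt2 lay above both controls. The difference of Etn-deprived from shLuc was -0.68 (SE 0.09, limma adjusted p = 0.00392), from 189 reads against 350 and 312. Mrpl2, which sits near the peptidyl transferase centre where peptide bonds form, stood at 36.8 and 36.4 RPKM in shLuc and 27.1 in Etn-deprived, a difference of -0.42 (SE 0.08, limma adjusted p = 0.0204).

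Small-subunit genes were among those furthest down. Mrps21 (chr3:95862652-95870619, minus strand) stood at 71.3 and 68.4 RPKM in shLuc, 44.7 in Etn-deprived, 57.3 in shEtnk1/2, 72.7 in shPcyt2 and 57.0 in shPebp1. Etn-deprived was the lowest, and shEtnk1/2 and shPebp1 also lay below both controls. The difference in Etn-deprived was -0.63 (SE 0.07, limma adjusted p = 0.00175). Mrps12 (chr7:28739641-28741781, minus strand), a protein of the decoding centre, where codons are matched to transfer RNAs, stood at 41.0 and 36.3 RPKM in shLuc and 25.3 in Etn-deprived. It was also below both controls in shEtnk1/2, at 29.0 RPKM, and in shPebp1, at 29.8 RPKM. The difference in Etn-deprived was -0.59 (SE 0.09, limma adjusted p = 0.00907). Mrps34, a mitochondria-specific small-subunit protein, differed by -0.46 and Mrps5, a bacterial-type one, by -0.40, both past the test.

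Among mitochondria-specific proteins of the large subunit, Mrpl38 (chr11:116131817-116138868, minus strand) showed the largest difference. It stood at 26.1 and 25.7 RPKM in shLuc, 17.9 in Etn-deprived, 22.7 in shEtnk1/2, 28.5 in shPcyt2 and 27.4 in shPebp1. The Etn-deprived value was the lowest of the 6, and the difference was -0.51 (SE 0.09, limma adjusted p = 0.0112). Mrpl57, Mrpl52, Mrpl54 and Mrpl37, all mitochondria-specific, differed by -0.50, -0.49, -0.48 and -0.40. The bacterial-type protein Mrpl21 differed by -0.49. The other 4 changed members, Mrpl34, Mrpl49, Mrpl23 and Mrpl20, differed by between -0.39 and -0.34.

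**Figure D2:**
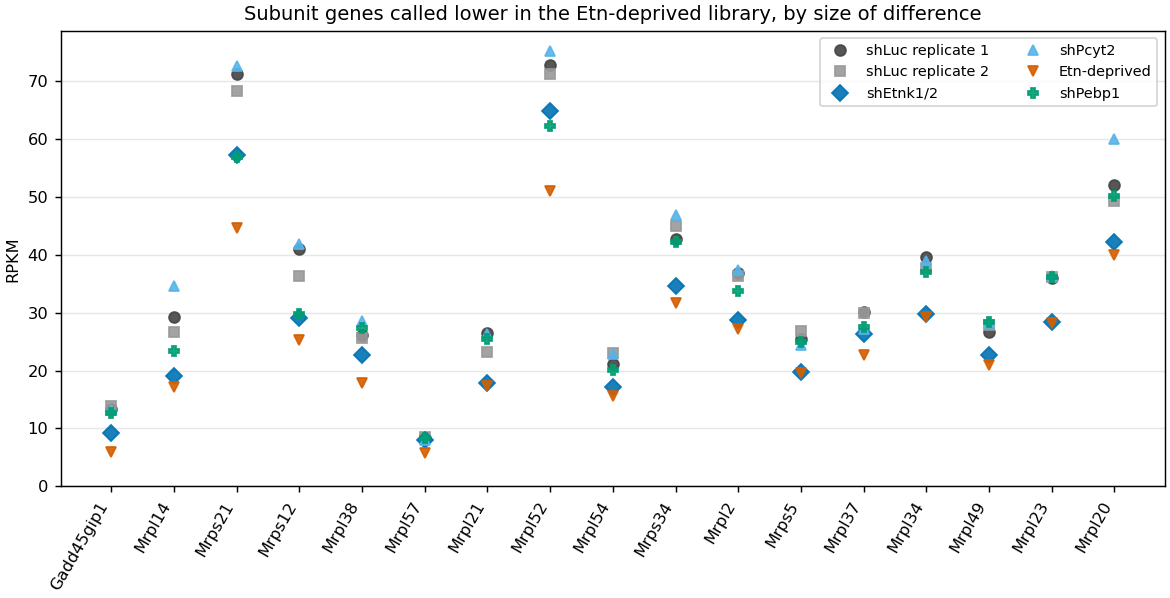
RPKM in each library, on a linear axis from 0, of the subunit genes that limma found lower in the Etn-deprived library, ordered by the size of the difference. The Etn-deprived value lies below both shLuc values for each gene shown, for example 17.1 against 29.2 and 26.6 RPKM for Mrpl14.

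Gadd45gip1, a large-subunit protein that contacts newly made chains and is needed for their insertion into the inner membrane, differed more than any member. Gadd45gip1 (chr8:84832282-84835482, plus strand) stood at 13.4 and 13.9 RPKM in shLuc, 5.89 in Etn-deprived, 9.28 in shEtnk1/2, 13.1 in shPcyt2 and 12.7 in shPebp1. The Etn-deprived value came from 190 reads, with a 95% Poisson interval of 5.08 to 6.79 RPKM, and was the lowest of the 6. The difference was -1.09 (SE 0.10, limma adjusted p = 0.000581), a level 2.13 times lower on the RPKM + 1 scale. Of the subunit genes lower in this library, it alone still passed the test once the trend of differences with transcript length, or with length and GC content, was removed.

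The other subunits named outside the series did not pass the test. Dap3, a GTP-binding small-subunit protein, differed by -0.04, Ptcd3 by 0.07, Aurkaip1 by -0.10 and Ict1, which releases stalled chains, by -0.15. Chchd1 stood at 25.5 RPKM in Etn-deprived against 19.4 and 13.3 in shLuc, and its difference of 0.63 had an SE of 0.28.

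A panel of members with well-known roles showed mixed values in the Etn-deprived library. Mrpl12, the stalk protein that recruits translation factors, stood at 57.6 and 58.4 RPKM in shLuc and 48.1 in Etn-deprived, a difference of -0.27 (limma adjusted p = 0.0801). Mrpl10 and Mrpl11, at the base of the stalk, differed by -0.14 and -0.27, and Mrpl27, close to the peptidyl transferase centre, by -0.27. Mrps7, in the head of the small subunit, differed by -0.33 (limma adjusted p = 0.0522). Mrpl3 and Mrps2 differed by 0.06 and 0.02. Among these 8 genes only Mrps12 passed the test. A pair of genes chosen after their values were seen shows the extremes outside the test: Mrps28 differed by -0.60 with an SE of 0.20, since its shLuc libraries stood at 13.8 and 19.1 RPKM, and Mrps27 was the member furthest up, with 0.28.

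In the shEtnk1/2 library 6 of 77 members (7.79%) were lower than in shLuc and 0 higher, where 2.37% of all genes were lower and 1.09% higher. The count was 0 with the length trend removed, with quantile normalization and with limma-voom on recovered reads. Counts over all genes under these settings are not given here. Leaving out either shLuc library also ended the calls. There the spread came from shPcyt2 and Etn-deprived, and most calls over all genes ended too. The median was -0.17 against -0.06 over all genes, and 69 of 77 members lay below shLuc. The 6 were Mrpl14, Mrpl21 and Mrpl34 of the large subunit and Mrps5, Mrps12 and Mrps16 of the small subunit. All 6 were among the 44 genes counted as bacterial-type.

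Mrpl14 differed by -0.53 (SE 0.09, limma adjusted p = 0.0163) in shEtnk1/2. Mrps16 (chr14:20391231-20393555, minus strand), a protein of the body of the small subunit, stood at 35.7 and 35.6 RPKM in shLuc, 26.5 in shEtnk1/2, 28.4 in Etn-deprived, 31.3 in shPcyt2 and 32.4 in shPebp1. The 4 treated libraries all lay below both controls, with shEtnk1/2 the lowest, and its difference was -0.42 (SE 0.08, limma adjusted p = 0.0249). Mrpl21 (chr19:3283047-3287755, plus strand) stood at 26.5 and 23.2 RPKM in shLuc, 17.9 in shEtnk1/2 and 17.3 in Etn-deprived, against 26.3 and 25.5 in shPcyt2 and shPebp1. Only shEtnk1/2 and Etn-deprived lay below both controls, and shEtnk1/2 differed by -0.45 (limma adjusted p = 0.0453). Mrps12, Mrps5 and Mrpl34 differed by -0.40, -0.39 and -0.36, with limma adjusted p of 0.0483, 0.045 and 0.0399. Gadd45gip1 was lower here too, with a difference of -0.51 (SE 0.10, limma adjusted p = 0.0286), at 9.28 RPKM. That call was lost with the length trend removed (limma adjusted p = 0.073), with median ratio scaling (0.0655) and with quantile normalization (0.0819).

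No member passed the test in shPcyt2 or shPebp1. Pcyt2 itself stood at 29.9 RPKM in shPcyt2, against 42 and 40 in shLuc. How far the pathway was blocked there was not tested. In shPcyt2 0 of 77 passed the test, where 0.109% of all genes did in either direction, and 3 (3.9%) had an unadjusted p under 0.05, as did 5.97% of all genes. The median was 0.01, the range ran from -0.21 to 0.31, and 34 members lay below shLuc and 43 above. In shPebp1 0 of 77 passed, where 0.101% of all genes did. An unadjusted p under 0.05 was found for 8 members (10.4%) and 5.85% of all genes, and for 0 and 1 members without shLuc replicates 1 and 2. The median was 0.00 and the range ran from -0.40 to 0.22. A limma-voom fit to the recovered reads also called 0 members in both, with 0 and 1 at an unadjusted p under 0.05. These comparisons share the shLuc libraries with those above.

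**Figure D3:**
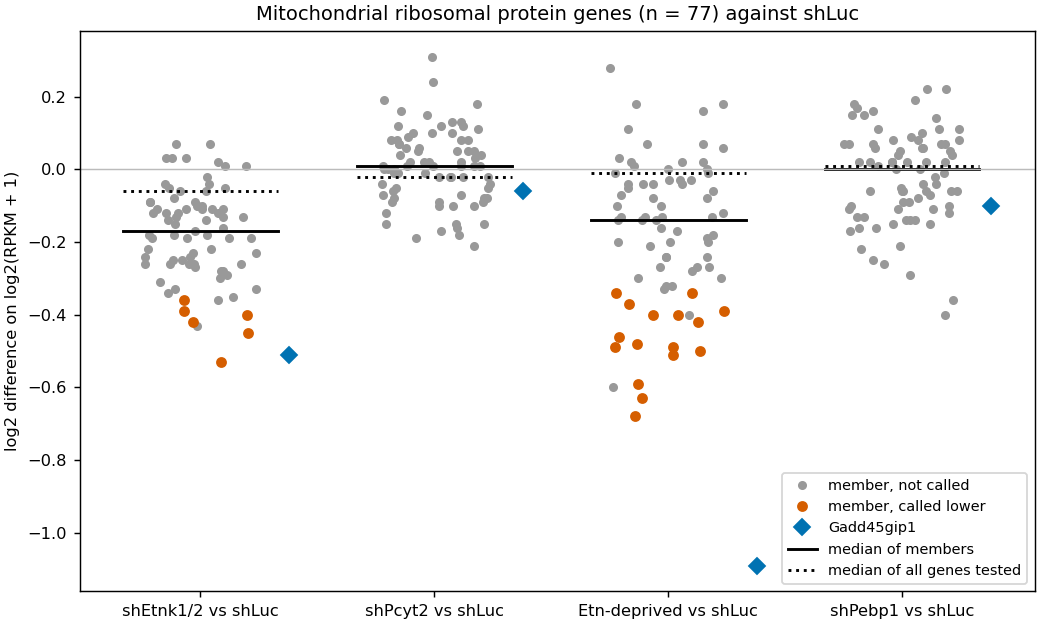
Difference from shLuc on the log2(RPKM + 1) scale for each of the 77 members (points, spread sideways at random) in the 4 treated libraries, with members called lower by limma in orange and Gadd45gip1 as a diamond. The solid line is the members' median (-0.17, 0.01, -0.14 and 0.00 from left to right) and the dotted line that of all 11939 genes tested.

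Set against both shLuc libraries rather than their mean, 52 members lay below both in Etn-deprived, where 41.9% of all genes did, and 57 in shEtnk1/2, where 51.9% of all genes did. In shPcyt2 22 members lay below both (39.4% of all genes) and in shPebp1 33 (31.7% of all genes). Between the shLuc libraries themselves the members' median difference was 0.01, with a range from -0.37 for Mrps11 to 0.44 for Mrps28.

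The Etn-deprived library was also tested directly against each other treatment, and the remaining pairs of treatments were not tested. Etn-deprived against shPcyt2, both aimed at the same pathway, gave 11 members lower in Etn-deprived, where 2.73% of all genes were lower, and 0 higher. Mrpl14 showed the largest of these differences, with 17.1 RPKM in Etn-deprived and 34.7 in shPcyt2 (difference -0.98, SE 0.11, limma adjusted p = 0.00125), followed by Mrps12 with -0.70, Mrps21 with -0.69 and Mrpl38 with -0.64. Mrpl21, Mrpl20, Mrpl52, Mrps34, Mrpl54, Mrpl2 and Mrpl34 differed by between -0.58 and -0.40. Gadd45gip1 differed by -1.04 (SE 0.12, limma adjusted p = 0.00168).

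Against shPebp1, 2 members were lower in Etn-deprived, where 0.988% of all genes were lower. Beside the members, Gadd45gip1 was lower too, with a difference of -0.99 (SE 0.12). Mrpl33 stood at 61.8 RPKM in Etn-deprived and 83.1 in shPebp1, the latter above all other libraries (difference -0.42, SE 0.08, limma adjusted p = 0.041), and Mrpl38 differed by -0.59 (SE 0.10, limma adjusted p = 0.0231). Against shEtnk1/2, 0 members passed the test, where 0.854% of all genes did, and 9 (11.7%) had an unadjusted p under 0.05, as did 14.4% of all genes. The limma-voom fit gave 0 calls and 3 such members. A p above the threshold in this comparison does not show that the 2 libraries were alike. Each of these comparisons set 1 library against 1. With the length trend removed, 1 of the 11 and 0 of the 2 calls were left in number, and 0 in both with length and GC trends removed.

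When shEtnk1/2, shPcyt2 and Etn-deprived were taken as 1 pathway group of 3 against the shLuc pair, 0 members passed the test, as did 0% of all genes. The number with an unadjusted p under 0.05 was 7 of 77 members (9.09%) and 724 of all genes (6.06%). It was 28 members without shPcyt2, where 14.3% of all genes had such a p, and 2 members without either shEtnk1/2 or Etn-deprived, where 3.18% and 7.14% did. With all 3 libraries limma-voom called 0 members with 3 at an unadjusted p under 0.05. The members' median was -0.10, and 69 of 77 lay below shLuc. For Mrpl14 the 3 values within the group were 19.1, 34.7 and 17.1 RPKM, so that the group overlapped the controls. An exact permutation of 3 against 2 libraries has 10 splits and cannot give a p below 0.1.

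Differences from shLuc varied with transcript length, in members and in all genes, to an extent that depended on the library. Over the 77 members Spearman's rho between length and difference was 0.32 in Etn-deprived and 0.26 in shEtnk1/2, and over all genes tested 0.26 and 0.10. With GC content it was -0.49 and -0.37 over members, and -0.50 and -0.18 over all genes with a value. For shPebp1 rho with length was 0.36 over members and 0.07 over all genes, and for shPcyt2 it had the opposite sign, with -0.18 and -0.24. These are descriptions across genes that share the same libraries. Of the 14 members up to 700 nt, 8 were lower in Etn-deprived (57.1%, median -0.34), where 26.9% of the 453 genes of that length were lower (median -0.24). Of the 18 members over 700 and up to 1000 nt, 2 were lower (11.1%), where 13.9% of genes of that length were, and of the 33 over 1000 and up to 2000 nt, 5 were lower (15.2%), where 5.06% were. Of the 12 members over 2000 nt, 1 was lower (8.33%), Mrpl57, where 0.727% of genes of that length were.

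The members are short, with a median of 1053 nt against 2905 nt over all genes tested, and those lower in Etn-deprived had a median of 791 nt and 56% GC, against 1067 nt and 50.5% for the rest. With the length trend removed from each library, 0 members passed the test in either Etn-deprived or shEtnk1/2, and the medians became -0.02 and -0.07. With length and GC trends both removed, the calls were again 0 and the medians -0.06 and -0.08. How many calls over all genes these removals ended is not given here. The trend over length and the family's own difference cannot be told apart where the members themselves are short. Leaving out either shLuc library, the one labelled replicate 2 included, also ended every member call in both comparisons, and that of Gadd45gip1. Those fits took their spread from the pathway libraries not under test, and most calls over all genes ended too. The members' medians stayed between -0.19 and -0.15.

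**Figure D4:**
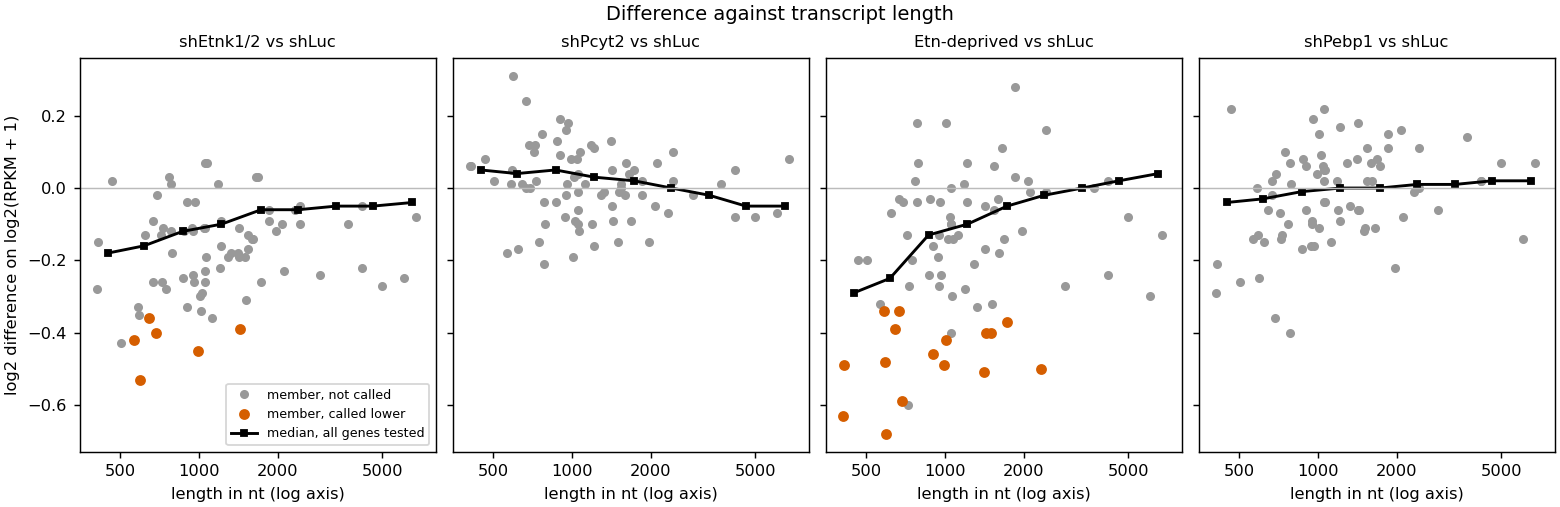
Difference from shLuc on the log2(RPKM + 1) scale against transcript length in nt (log axis) in the 4 treated libraries, with members as points and the median of all genes tested, in bins of length, as the black line. In Etn-deprived the line rises from -0.29 at 448 nt to 0.04 at 6520 nt, and the members called lower (orange) gather at the short end, 8 of them at 700 nt or less.

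A pair of families with still shorter genes also held lower genes in the Etn-deprived library. Of 72 cytosolic ribosomal protein genes 31 were lower (43.1%, median -0.21), and of 79 nuclear genes of oxidative phosphorylation 32 were lower (40.5%, median -0.25), with median lengths of 706.5 and 692 nt. In shEtnk1/2 these counts were 6 of 72 and 16 of 79, with medians of -0.13 and -0.18. With the length trend removed, the Etn-deprived medians were -0.02 and -0.06. Then 3 and 5 genes of these families were called in either direction, not necessarily those counted above, against 0 members. With GC removed as well, 3 and 4 were called and the medians were -0.02 and -0.10. No test of the difference between families was made.

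**Figure D5:**
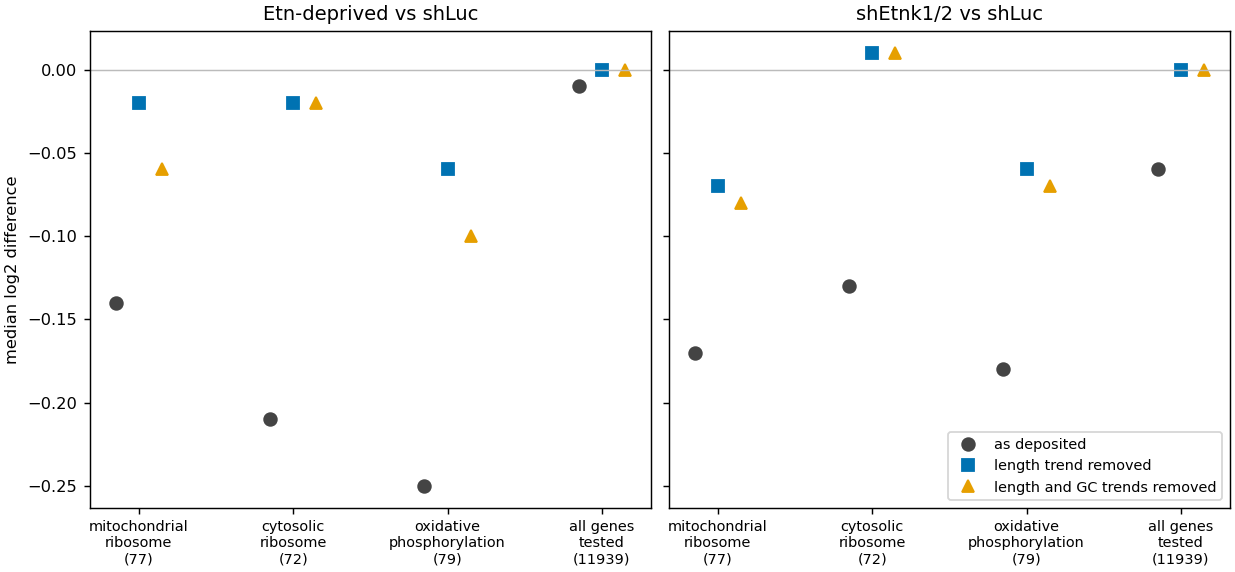
Median log2 difference from shLuc of the 77 members, 72 cytosolic ribosomal protein genes, 79 genes of oxidative phosphorylation and all 11939 genes tested, as deposited (circles), with the length trend removed (squares) and with length and GC trends removed (triangles). In Etn-deprived the members move from -0.14 to -0.02 and -0.06.

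Other genes serve the mitochondrial ribosome, and their counts stand beside 3.22% lower and 0.586% higher over all genes in Etn-deprived and 2.37% and 1.09% in shEtnk1/2. Of 15 translation factors 1 (6.67%) was lower in Etn-deprived, Tufm, the elongation factor that brings transfer RNAs to the ribosome, with 57.3 and 60.2 RPKM in shLuc and 46.2 in Etn-deprived (difference -0.34, SE 0.08, limma adjusted p = 0.0383). In shEtnk1/2 the 1 called (6.67%) was Taco1, which promotes translation of the Cox1 messenger RNA, with 10.4 and 10.5 RPKM in shLuc and 7.42 in shEtnk1/2 (difference -0.45, limma adjusted p = 0.0491). Taco1 stood at 9.93 RPKM in Etn-deprived, close to shLuc.

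Of 24 measured assembly factors, 1 was lower and 1 higher in Etn-deprived (4.17% each). Ftsj2, which methylates the large ribosomal RNA, was lower in Etn-deprived (5.19 and 5.18 RPKM in shLuc, 3.20 in Etn-deprived, difference -0.56, limma adjusted p = 0.049). Malsu1, which binds Mrpl14 during assembly of the large subunit, was higher (6.13 and 6.93 RPKM in shLuc, 9.66 in Etn-deprived, difference 0.50, limma adjusted p = 0.0496). Malsu1 also stood above both controls in shEtnk1/2, at 8.70 RPKM, and in shPebp1, at 9.51 RPKM, without passing the test there. No assembly factor was called in shEtnk1/2. Of 20 genes for charging mitochondrial transfer RNAs, 10 for transcription and upkeep of mitochondrial DNA, and 8 nuclear regulators such as Nrf1 and Gabpa, 0 were called in either library, and their medians in Etn-deprived were -0.13, 0.00 and -0.10. None of Tufm, Ftsj2, Malsu1 and Taco1 passed the test once the length trend was removed.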

How the data were processed

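Polyadenylated RNA was sequenced in 6 libraries. The authors deposited RPKM values, 1 per gene and library. The submitters' processing notes name Bowtie 0.12.2 and build mm10 with no further detail, and the sources used here do not give the gene models, the counter or the strand setting. Reads and transcript lengths were recovered from the deposited RPKM, since the values of a gene stand in ratios of whole numbers across libraries. Of 4995 genes 98.3% then had a whole length, within 0.02 nt. Positions are those deposited.

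Log2(RPKM + 1) of genes averaging 1 RPKM or more was tested with limma 3.58.1 in R 4.3.3, in a model of 5 group means with a trended, robust empirical Bayes step. The spread came from the shLuc pair (1 residual degree of freedom, prior 9.24), so treated libraries were assumed to vary as shLuc did. The fit of 3 pathway libraries against 2 had 3 and a prior of 6.37. P-values were two-sided, Benjamini-Hochberg adjusted over 11939 genes, with a threshold of 0.05. The fit was tested on simulated data with the same extra spread in every gene and no trend with length or GC. Such data cannot show how the fit handles those trends. Intervals are 95% Poisson intervals of recovered reads.

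Named genes were the targets, members called (at most the 12 furthest from 0, with the rest of 16 listed), the 5 highest and 5 lowest, members that differ by a letter, subunits with other names, up to 3 called genes of each other list, and a panel of 8. Members and lists were chosen with earlier results of these data known. Exon overlaps and GC content came from GENCODE M21 on GRCm38. Overlaps of subunit genes outside the naming rule are not reported here.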

Additional observations from a re-analysis of the deposited data

How the results depend on the processing

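Neither Gadd45gip1 nor any member called lower against shLuc changed sign in that comparison under the settings tried, and no member was called higher. The counts of members called depended on the setting. For Etn-deprived against shLuc (16 members), limma called 0 with no filter, 8 with median ratio scaling, 6 with quantile normalization, 0 with the length trend removed, 0 with length and GC trends removed, 9 with limma-voom, 0 with no trend and no robust step, and 0 to 0 without either shLuc replicate. For shEtnk1/2 (6) the counts were 0, 1, 0, 0, 0, 0, 0 and 0 to 0 in the same order, and 13 with a mean of at least 5 RPKM. For Etn-deprived against shPcyt2 (11) they were 0 with no filter, 7 with quantile normalization, 1 with the length trend removed, 0 with length and GC trends removed and 0 with no trend. For Etn-deprived against shPebp1 (2) they were 5 with a mean of at least 5 RPKM, 1 with limma-voom, and 0 with no filter, either scaling, either trend removal or no trend. Counts over all genes under these settings are not given here, so a drop need not be particular to the members. The cause was not tested. Leaving out a shLuc library replaces the spread of the shLuc pair by that of the pathway libraries not under test. Most calls over all genes then ended too, in Etn-deprived and in shEtnk1/2. Without shLuc replicates 1 and 2, 12 and 15 members lay lower in Etn-deprived at an unadjusted p under 0.05, where 7.31% and 7.48% of all genes had such a p in either direction. The simulated data gave false calls mostly among genes with few reads, so a fit with the spread trended on reads was added after seeing the data. It called 17 members in Etn-deprived and 8 in shEtnk1/2, among 1048 and 1002 genes in all, where the fit trended on level called 454 and 413. Gadd45gip1 was called in Etn-deprived under 9 of 13 alternatives, with an adjusted p between 9.92e-10 and 0.28 by limma, and in shEtnk1/2 under 5 of 13, with an adjusted p between 0.00516 and 1. No paired analysis was possible because only shLuc had replicate numbers.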

Other observations

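Member genes often start close to another gene. Of 77 members, 22 (28.6%) have the start of a gene on the opposite strand within 500 bases upstream, against 11.4% of the 11939 genes tested, by the deposited positions. Mrps11 and Mrpl46 are such a pair within the family, 42 bases apart. They stood at 22.7 and 15.2 RPKM in shLuc replicate 1, and at 17.4 and 19.2 RPKM in shLuc replicate 2, so that the order of the pair differed between the controls. Mrps12 starts 187 bases from Sars2, which charges mitochondrial serine transfer RNA, and Mrpl43 starts 116 bases from Peo1, the mitochondrial DNA helicase. Mrpl49 starts 137 bases from Fau, a gene of the cytosolic ribosome, and Mrpl47 308 bases from Ndufb5, a gene of respiratory complex I. In GENCODE M21, 25 of 77 members share exon bases with another gene, 21 of them with a gene on the opposite strand.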
